A study of Mus musculus with 8 samples.

Results

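The genes described here are the Notch receptors Notch1, Notch2, Notch3 and Notch4, the ligands Jag1, Jag2 and Dll1, the target genes Hes1 and Hey1, and Lfng, a glycosyltransferase that modifies the receptors. They were taken by symbol, and all 10 were among the 16341 genes in the count table. RNA sequencing had been done on magnetically sorted fractions of 4T1, a BALB/c mouse mammary carcinoma line. 4T1-Sca1+ cells carried SCA1, a surface protein encoded by Ly6a, and 4T1-Sca1- cells did not. Each group had 4 libraries. The labels name no other treatment, time or allele, and the groups came from a single line. They give the parental line as the source of the cells, and the paper states the same origin for its profiled fractions. The protocol instead speaks of stained 4T1 tumor and a CD45-negative sort, so the origin is left as the labels give it. Whether the libraries came from separate sorts is not stated, so the spread between them may be technical.

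Notch receptors are single-pass membrane proteins that are activated by Jagged or Delta-like ligands on a neighbouring cell. Ligand pulling exposes a site for ADAM proteases, gamma-secretase then frees the intracellular domain, and this domain joins the DNA-binding protein RBPJ and a Mastermind coactivator at target genes such as those of the HES and HEY families. In the mammary gland the pathway takes part in luminal cell fate. Because signaling depends on protein cleavage, transcript levels of receptors and ligands do not measure pathway activity.

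The 4T1-Sca1+ libraries held 15041995 to 16968215 counts and the 4T1-Sca1- libraries 13561804 to 16142836. Ly6a checked the sort: it had 145 to 196 counts where SCA1 was selected for and 0 to 4 where it was not. Epithelial markers were abundant in both groups, with summed normalized counts over 8 genes of 54200 to 59100 and 53700 to 58000, although the basal keratin Krt5 had at most 2 counts. The sums hide opposite changes. Cdh1 had a mean normalized count of 3264 in 4T1-Sca1+ and 5301 in 4T1-Sca1- cells. Krt7 and Krt14 were also lower in 4T1-Sca1+ cells, Krt8 and Krt18 were higher, and Epcam and Krt19 overlapped between the groups. One library stood apart from its group. In 4T1-Sca1+ replicate 3, the 10% of genes richest in GC were raised over the 10% poorest in GC by a median of 0.49 on the log2 scale, relative to the mean of the libraries, against 0.05 to 0.12 in the other libraries of its group and -0.32 to 0.00165 among 4T1-Sca1- libraries. This trend thus also moved with the groups. Its part in the differences of GC-rich members was examined only by a fit with GC-corrected offsets and by a fit without that library, and both values are given where they matter.

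Promoter sequences are shown for 3 members, namely the one with the largest change, the most abundant receptor and the only one with a motif match. They were chosen after the values and matches were seen, and a link between these sequences and the changes was not tested. RefSeq promoters were found for 8 of the 10 members, with none for Hes1 and Hey1. Each line gives the 250 bases before the RefSeq start on GRCm38.p6, 5′ to 3′ on the strand of the gene. Capitals mark the core letters recognised by RBPJ, TGGGAA, or their reverse complement TTCCCA.
Notch3 promoter, chr17:32166891-32167140, minus strand: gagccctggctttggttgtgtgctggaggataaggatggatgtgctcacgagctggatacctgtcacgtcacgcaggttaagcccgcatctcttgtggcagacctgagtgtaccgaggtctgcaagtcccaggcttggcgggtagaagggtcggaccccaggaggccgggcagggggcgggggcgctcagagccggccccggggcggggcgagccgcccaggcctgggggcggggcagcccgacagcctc
Notch2 promoter, chr3:98013288-98013537, plus strand: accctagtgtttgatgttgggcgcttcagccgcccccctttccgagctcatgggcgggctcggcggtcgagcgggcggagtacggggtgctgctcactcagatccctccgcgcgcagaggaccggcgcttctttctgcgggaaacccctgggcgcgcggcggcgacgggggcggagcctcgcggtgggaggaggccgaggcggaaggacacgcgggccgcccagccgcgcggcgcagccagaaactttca
Lfng promoter, chr5:140607091-140607340, plus strand: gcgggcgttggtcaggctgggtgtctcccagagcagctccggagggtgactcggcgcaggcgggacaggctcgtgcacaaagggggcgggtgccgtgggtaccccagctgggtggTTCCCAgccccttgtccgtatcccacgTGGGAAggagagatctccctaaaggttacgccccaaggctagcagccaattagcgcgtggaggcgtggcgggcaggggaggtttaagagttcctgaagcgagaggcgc
These windows were rich in G and C, with 68.8% for Notch3, 72.0% for Notch2 and 66.0% for Lfng, and held 17, 34 and 18 CpG dinucleotides. Lfng had a match on each strand, beginning 135 and 108 bases before the start. Counting also 50 bases after the start, the letters were present in 1 of 9 member promoters (Dll1 has 2 promoters), in 20 of 76 promoters of other Notch pathway genes and in 25.6% of the 32851 mouse promoters. A match of these letters is a description of the window and not a binding site.

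Between 4T1-Sca1+ and 4T1-Sca1- cells, 8 of the 10 genes had enough counts to be tested. Notch1, Notch3 and Lfng were higher in 4T1-Sca1+ cells, Notch2, Jag1, Jag2 and Hes1 were lower, and Dll1 did not pass the test. A gene was called at an adjusted p under 0.05 in edgeR's quasi-likelihood test with Benjamini-Hochberg adjustment over 11717 genes. The spread between libraries was small (biological coefficient of variation 0.0541), and 61.5% of all tested genes were called, 31.3% higher and 30.2% lower, so 7 calls among 8 genes are read against that background. With GC-corrected offsets 6 of the 8 were called, against 65.3% of all tested genes. Without 4T1-Sca1+ replicate 3 the same number was called. In that fit 3642 of 11782 tested genes were called higher and 3548 lower. The size of the changes separated the members more than the calls did. Only Notch3 changed by at least 2-fold, as 6.10% of all tested genes did, and the other 6 called members changed by less than 1.5-fold. The median log2 fold change was -0.05 over the 8 members and 0.00738 over all tested genes.

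**Figure D1:**
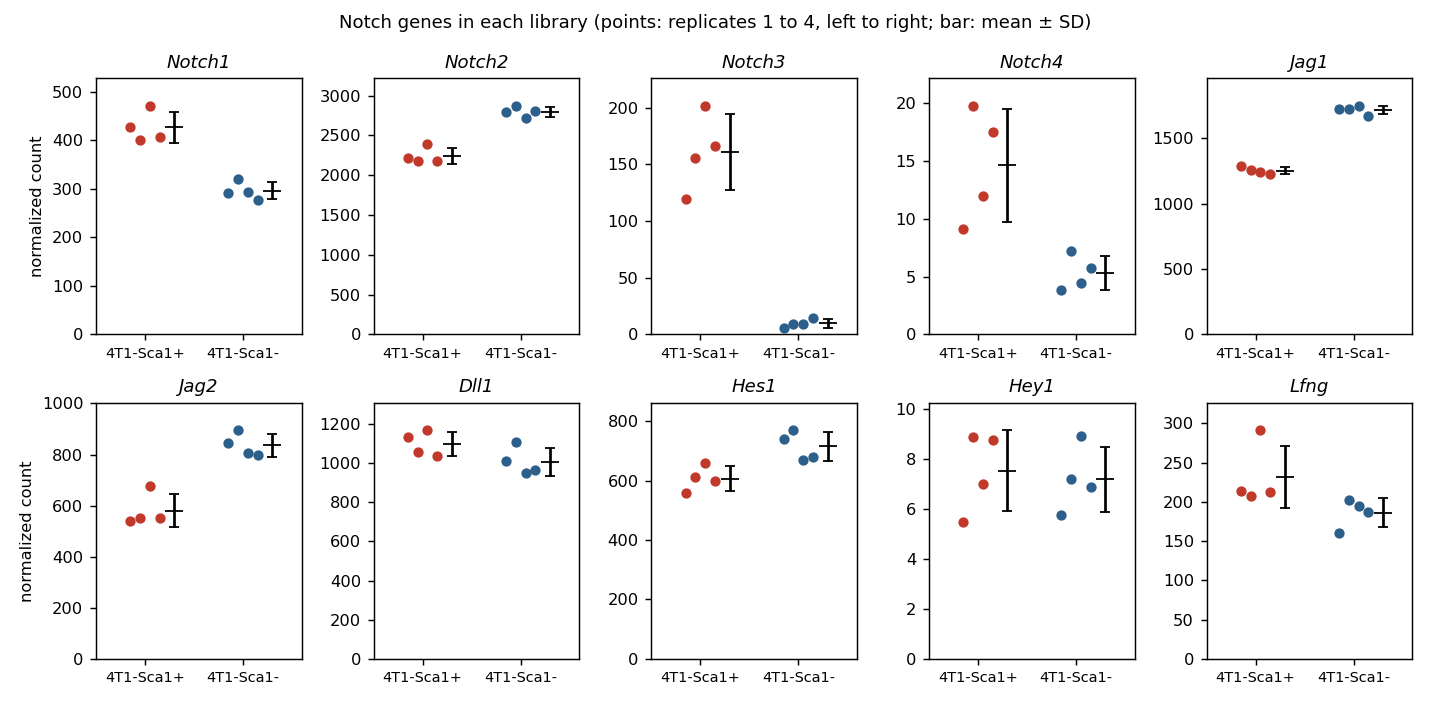
Normalized count (counts divided by the library's size factor, y axis from 0, own scale per gene) of the 10 Notch genes in 4 4T1-Sca1+ libraries (red) and 4 4T1-Sca1- libraries (blue), with bars for mean ± SD. Notch3 sits between 120 and 201 in 4T1-Sca1+ and at or below 14.8 in 4T1-Sca1- libraries, whereas the other genes differ by smaller steps or overlap.

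Notch3 (ENSMUSG00000038146, chr17:32120820-32166852, minus strand), a receptor best known in vascular smooth muscle and also expressed in mammary luminal progenitors, showed the largest change. It had 131, 158, 202 and 190 counts in 4T1-Sca1+ replicates 1 to 4 and 6, 9, 8 and 13 counts in 4T1-Sca1- replicates 1 to 4. The lowest 4T1-Sca1+ library, at 131 counts, lay far above the highest 4T1-Sca1- library, at 13, and no library was at 0. The normalized count was 161 ± 33.6 against 9.68 ± 3.79 (SD, n = 4), a 16.8-fold difference (log2 fold change 4.07, SE 0.23, edgeR adjusted p = 9.7e-11). Of all tested genes, 13 or 0.111% had a log2 fold change this large. The value was 3.86 with GC-corrected offsets and between 3.86 and 4.34 when each library was left out in turn. The kit does not mark strand, and 488 bases of the Notch3 exons lie opposite an antisense annotation that was not counted. Notch3 is in a gene signature that the study drew from these same libraries, so that listing is not independent evidence.

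Notch1 (ENSMUSG00000026923, chr2:26457903-26516663, minus strand), a receptor broadly used in progenitor cells, was higher by a much smaller step. Its normalized counts were 428, 401, 471 and 407 in 4T1-Sca1+ replicates 1 to 4 and 292, 320.3, 294 and 277 in 4T1-Sca1- replicates 1 to 4. The groups did not overlap, as was so for 7 of the 8 tested members and for 54.7% of all tested genes. Mean levels were 427 ± 31.5 and 296 ± 17.9 (SD, n = 4), a 1.45-fold difference (log2 fold change 0.54, SE 0.07, edgeR adjusted p = 4.59e-06). With GC-corrected offsets the log2 fold change was 0.39.

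Notch2 (ENSMUSG00000027878, chr3:98013527-98150361, plus strand), the receptor with the highest level in both groups, went the other way. Normalized counts were 2215, 2177, 2396 and 2182 in 4T1-Sca1+ replicates 1 to 4 and 2791, 2871, 2713 and 2810 in 4T1-Sca1- replicates 1 to 4. All 4T1-Sca1- libraries were above all 4T1-Sca1+ libraries, and 4T1-Sca1+ replicate 3 was the nearest to them. The mean was 2242 ± 104 against 2796 ± 65.2 (SD, n = 4), with a log2 fold change of -0.31 (SE 0.04, edgeR adjusted p = 1.4e-05).

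Notch4 (ENSMUSG00000015468, chr17:34564268-34588503, plus strand), a receptor known mainly from endothelium, was near the limit of detection and below the count filter. It had 10, 20, 12 and 20 counts in 4T1-Sca1+ replicates 1 to 4 and 4, 7, 4 and 5 counts in 4T1-Sca1- replicates 1 to 4. The groups did not overlap at this low level. In a fit with no filter the log2 fold change was 1.45 (SE 0.38, edgeR adjusted p = 0.00116).

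Divided by exon length, the receptor transcripts were dominated by Notch2, and the share of Notch3 differed most in relative terms. Notch3 made up 5.89%, 7.65%, 8.84% and 8.10% of the summed normalized counts per kilobase of the 4 receptors in 4T1-Sca1+ replicates 1 to 4, and 0.253%, 0.393%, 0.402% and 0.649% in 4T1-Sca1- replicates 1 to 4. The means were 7.62% ± 1.3 and 0.424% ± 0.16 (SD, n = 4). The difference of 7.20 percentage points had an exact two-sided permutation p of 0.0286, the smallest that 4 against 4 libraries allow, and the same after adjustment over the 2 shares tested. The Notch3 counts had already separated the groups without overlap, so this p is not independent support. Notch2 held 80.1% ± 1.2 of this sum in 4T1-Sca1+ and 92.0% ± 0.33 in 4T1-Sca1- cells, Notch1 11.5% ± 0.37 and 7.37% ± 0.36, and Notch4 0.701% ± 0.25 and 0.232% ± 0.06. The sum itself was 259.6 ± 14.7 normalized counts per kilobase in 4T1-Sca1+ and 282 ± 6.96 in 4T1-Sca1- cells (SD, n = 4) and was not tested. It was 251, 252 and 254 in 4T1-Sca1+ replicates 1, 2 and 4, below all 4T1-Sca1- libraries (274 to 291), and 282 in replicate 3, the library that stood apart, which alone overlapped them. In bulk libraries a larger share of cells with a transcript and more transcript per cell cannot be told apart.

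**Figure D2:**
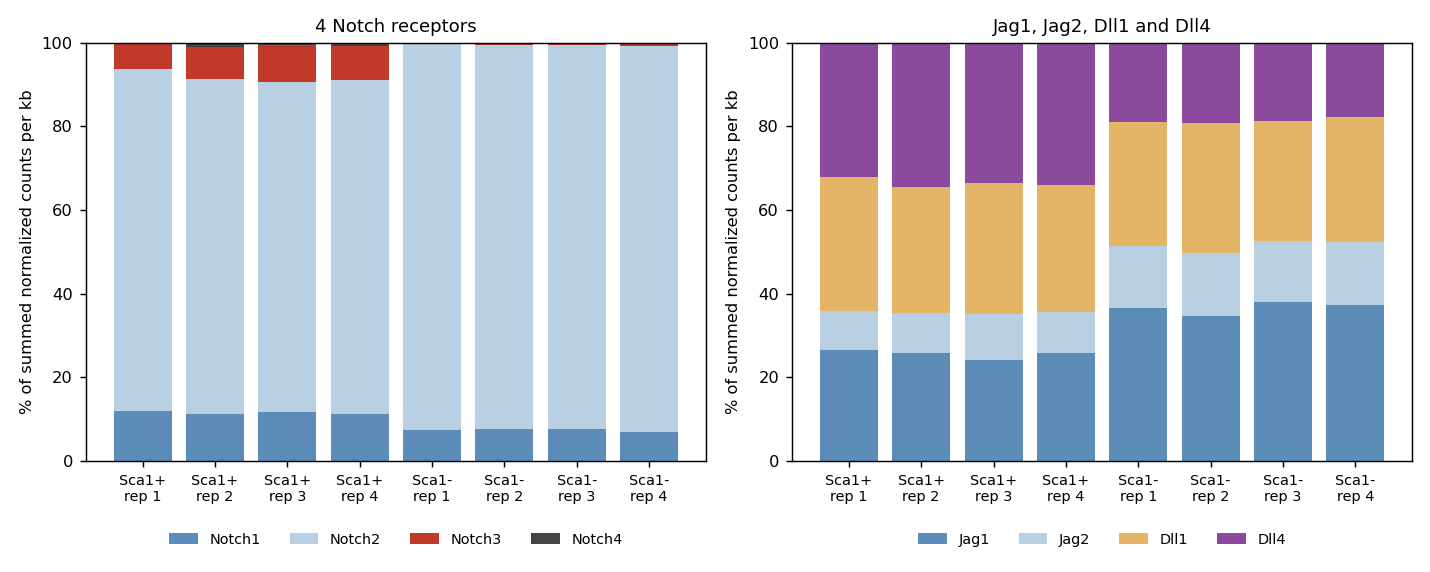
Percent of summed normalized counts per kilobase of exon (y axis) in each of the 8 libraries (x axis) for the 4 receptors (left) and for Jag1, Jag2, Dll1 and Dll4 (right). Notch3 (red) takes 5.89% to 8.84% of receptor transcript in 4T1-Sca1+ and at most 0.649% in 4T1-Sca1- libraries, and Dll4 (purple) takes 32.1% to 34.5% and 17.7% to 19.3% of ligand transcript.

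Transcripts of other cell types were examined beside Notch3 and Notch4, since both are known from vessels. Of 7 endothelial markers, 5 had at most 10 counts in every library or were not counted, and their summed normalized count was 33.8 to 40.9 in 4T1-Sca1+ and 43.4 to 63.9 in 4T1-Sca1- libraries and was mostly Tie1. Tie1 was lower in 4T1-Sca1+ cells (log2 fold change -0.60, SE 0.19, edgeR adjusted p = 0.0121), and Cdh5 and Esam overlapped between the groups. Pecam1 went the other way, with 4 to 7 counts in 4T1-Sca1+ and 0 to 2 in 4T1-Sca1- libraries. Of 11 fibroblast and mural markers, 7 had at most 10 counts or were not counted, with Col3a1 and Lum not counted. Their sum was 614 to 658 in 4T1-Sca1+ and 381 to 443 in 4T1-Sca1- libraries and was mostly Pdgfra. Dcn, of the same list, had 15, 14, 6 and 14 counts in 4T1-Sca1+ replicates 1 to 4 and 1 count in each 4T1-Sca1- library. With no filter its log2 fold change was 3.30 (SE 0.59, edgeR adjusted p = 2.29e-06). Both tested genes of this list were higher in 4T1-Sca1+ cells. Pdgfra had a log2 fold change of 0.63 (SE 0.07, edgeR adjusted p = 2.28e-07) and Col1a1 of 0.75 (SE 0.19, edgeR adjusted p = 0.00252). Col1a2, Cspg4 and Myh11 overlapped between the groups. The mural genes Pdgfrb, Rgs5, Cspg4, Acta2 and Myh11, grouped after their values were seen, summed to 14.8 to 23.6 and 1.91 to 8.91. Pdgfrb had 3 to 14 counts in 4T1-Sca1+ and 0 or 1 in 4T1-Sca1- libraries. With no filter its log2 fold change was 4.06 (SE 0.91, edgeR adjusted p = 1.27e-04). Rgs5 had 1 to 5 counts in 4T1-Sca1+ libraries and Acta2 had 2 or 3, and both had 0 in each 4T1-Sca1- library. Of 8 leukocyte markers, 5 had at most 10 counts or were not counted, and the sum was 170 to 180 and 78.3 to 117. Ptprc, which encodes CD45, had 2 to 4 counts in 4T1-Sca1+ and 0 or 1 in 4T1-Sca1- libraries. With no filter the Ptprc log2 fold change was 1.925 (SE 0.99, edgeR adjusted p = 0.107). The leukocyte sum was mostly Cd74, at 118 to 133 normalized counts in 4T1-Sca1+ and 51.2 to 86.2 in 4T1-Sca1- libraries. Csf1r was also higher in 4T1-Sca1+ cells, whereas Coro1a and Itgam overlapped between the groups. The stromal, mural and leukocyte sums, Dcn, Pdgfrb, Rgs5, Acta2 and Pecam1 thus moved with Notch3 and Notch4. The endothelial sum and Tie1 moved the opposite way. The part of these cell types in the Notch3 and Notch4 differences was not tested.

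Among the ligands, both Jagged genes were lower in 4T1-Sca1+ cells. Jag1 (ENSMUSG00000027276, chr2:137081456-137116644, minus strand) had normalized counts of 1288, 1254, 1240 and 1223 in 4T1-Sca1+ replicates 1 to 4 and 1720, 1719, 1745 and 1668 in 4T1-Sca1- replicates 1 to 4. It was the tightest of the members, with 1251 ± 27.7 against 1713 ± 32.6 (SD, n = 4), a log2 fold change of -0.44 (SE 0.04, edgeR adjusted p = 1.62e-07). The fit with GC-corrected offsets gave -0.41.

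Jag2 (ENSMUSG00000002799, chr12:112907819-112929776, minus strand), the second Jagged ligand, had normalized counts of 541, 551, 676 and 552 in 4T1-Sca1+ replicates 1 to 4 and 845, 895, 807 and 797 in 4T1-Sca1- replicates 1 to 4. The groups did not overlap, and 4T1-Sca1+ replicate 3 lay above the rest of its group. Its log2 fold change was -0.52 (SE 0.07, edgeR adjusted p = 4.9e-06). Its exons were the richest in GC among the members at 61.9%, and the log2 fold change grew to -0.80 with GC-corrected offsets and was -0.60 without 4T1-Sca1+ replicate 3.

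Dll1 (ENSMUSG00000014773, chr17:15367354-15376872, minus strand), a Delta-like ligand that marks mammary stem cells in some settings, overlapped between the groups. The values were 1131, 1058, 1168 and 1034 normalized counts in 4T1-Sca1+ replicates 1 to 4 and 1010, 1107, 947 and 963 in 4T1-Sca1- replicates 1 to 4. The log2 fold change of 0.14 (SE 0.06, edgeR adjusted p = 0.0502) lay at the threshold, and it was 0.05 (adjusted p = 0.41) with GC-corrected offsets.

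Jagged transcripts took a smaller share of the ligand pool in 4T1-Sca1+ cells. Jag1 made up 38.5% ± 1.5 of the summed normalized counts per kilobase of Jag1, Jag2 and Dll1 there, against 45.1% ± 1.6 in the 4T1-Sca1- group (SD, n = 4), with values of 36.3% to 39.5% and 43.0% to 46.8%. The difference of -6.57 percentage points had an exact two-sided permutation p of 0.0286, again the smallest possible. The Jag1 counts had also separated the groups, so this p is not independent of that difference. Jag2 went from 18.4% ± 0.29 in 4T1-Sca1- to 14.9% ± 1.2 in 4T1-Sca1+ cells and Dll1 from 36.5% ± 1.3 to 46.6% ± 0.75. Dll1 itself did not pass the test, and its larger share went with lower Jagged levels.

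Dll4, a Delta-like ligand best known from sprouting vessels and not one of the 10 genes, was the highest called gene among the other ligands. Its normalized counts were 1031, 1107, 1146 and 1066 in 4T1-Sca1+ replicates 1 to 4 and 587, 630.4, 569 and 522 in 4T1-Sca1- replicates 1 to 4. Every 4T1-Sca1+ library was above every 4T1-Sca1- library, with a log2 fold change of 0.92 (SE 0.06, edgeR adjusted p = 6.11e-10). When Dll4 was added to the ligand pool after its values were seen, its share was 33.6% ± 1.1 in 4T1-Sca1+ and 18.6% ± 0.66 in 4T1-Sca1- cells, and Jag1 held 25.6% ± 1.0 and 36.7% ± 1.4. The Dll1 share was then 30.9% ± 0.95 and 29.7% ± 0.98, with overlapping libraries, so its larger share was seen only in the pool without Dll4. The Dll4 exons overlap those of Gm14207, a counted gene on the opposite strand, so the count may hold reads of either. Dlk2, a non-canonical ligand of the same list, was the lowest at a log2 fold change of -0.70 (SE 0.07, edgeR adjusted p = 2.41e-07), or -0.97 with GC-corrected offsets, and its exons overlap those of the counted gene Abcc10 on the opposite strand.

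Of the target genes Hes1 was lower and Hey1 was too scarce to test. Hes1 (ENSMUSG00000022528, chr16:30064384-30067796, plus strand), a transcriptional repressor and the classical Notch target, was well expressed in both groups. It had normalized counts of 558, 611, 660.3 and 600 in 4T1-Sca1+ replicates 1 to 4 and 741, 770, 670.1 and 681 in 4T1-Sca1- replicates 1 to 4. The highest 4T1-Sca1+ library and the lowest 4T1-Sca1- library nearly touched, and the log2 fold change was -0.23 (SE 0.06, edgeR adjusted p = 0.00498).

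Hey1 (ENSMUSG00000040289, chr3:8663359-8667256, minus strand), a related repressor, was barely detected, with 6, 9, 7 and 10 counts in 4T1-Sca1+ replicates 1 to 4 and 6, 7, 8 and 6 counts in 4T1-Sca1- replicates 1 to 4. The groups overlapped, with means of 7.52 ± 1.61 and 7.17 ± 1.31 normalized counts (SD, n = 4), and with no filter the log2 fold change was 0.08 (SE 0.42, edgeR adjusted p = 0.902). Of the 7 other HES and HEY genes, Hes2 and Hes5 were not counted, Hes3, Hes7, Hey2 and Heyl had at most 10 counts in any library, and only Hes6 was tested. Hey2 had 0, 2, 2 and 4 counts in 4T1-Sca1+ replicates 1 to 4 and 2, 9, 9 and 6 in 4T1-Sca1- replicates 1 to 4, groups that overlapped, and with no filter its log2 fold change was -1.80 (SE 0.61, edgeR adjusted p = 0.0115). Hes6, which antagonises HES1 in some cell types, rose from 138 ± 15.6 in 4T1-Sca1- to 242 ± 18.3 in 4T1-Sca1+ cells (SD, n = 4), a log2 fold change of 0.83 (SE 0.09, edgeR adjusted p = 8.08e-07). With GC-corrected offsets the Hes6 log2 fold change was smaller, at 0.55.

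All 5 counted genes of the list of other reported targets were called, 3 higher and 2 lower, where 61.5% of all tested genes were called. Nrarp, a feedback inhibitor that binds the Notch intracellular domain, is described although the naming rule did not pick it. Its normalized counts were 997, 962, 1344 and 1077 in 4T1-Sca1+ replicates 1 to 4 and 608, 673, 557 and 572 in 4T1-Sca1- replicates 1 to 4. The log2 fold change was 0.87 (SE 0.09, edgeR adjusted p = 1.84e-07), and 0.76 without 4T1-Sca1+ replicate 3. Most of the Nrarp exons lie opposite an uncounted antisense annotation, and strand use in the counting is not given in the sources used here. Cdkn1a, a cell cycle inhibitor, was the highest of the list at a log2 fold change of 1.05 (SE 0.06, edgeR adjusted p = 1.22e-10), and Sox9, a mammary progenitor factor, the lowest at -0.36 (SE 0.07, edgeR adjusted p = 2.58e-04). These genes also answer to other pathways.

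Lfng (ENSMUSG00000029570, chr5:140607320-140615545, plus strand) encodes a fringe enzyme that extends O-fucose on Notch and favours Delta over Jagged as activator of NOTCH1. Its normalized counts were 214, 208, 291 and 213 in 4T1-Sca1+ replicates 1 to 4 and 160.4, 202, 195 and 187 in 4T1-Sca1- replicates 1 to 4. The groups did not overlap, but 208 and 202 were close, and 4T1-Sca1+ replicate 3 stood alone above the rest. The log2 fold change was 0.33 (SE 0.11, edgeR adjusted p = 0.0161), and the call was lost with GC-corrected offsets (0.13, adjusted p = 0.175), without 4T1-Sca1+ replicate 3 (0.20, adjusted p = 0.0622) and without 4T1-Sca1- replicate 1 (0.25, adjusted p = 0.0832).

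**Figure D3:**
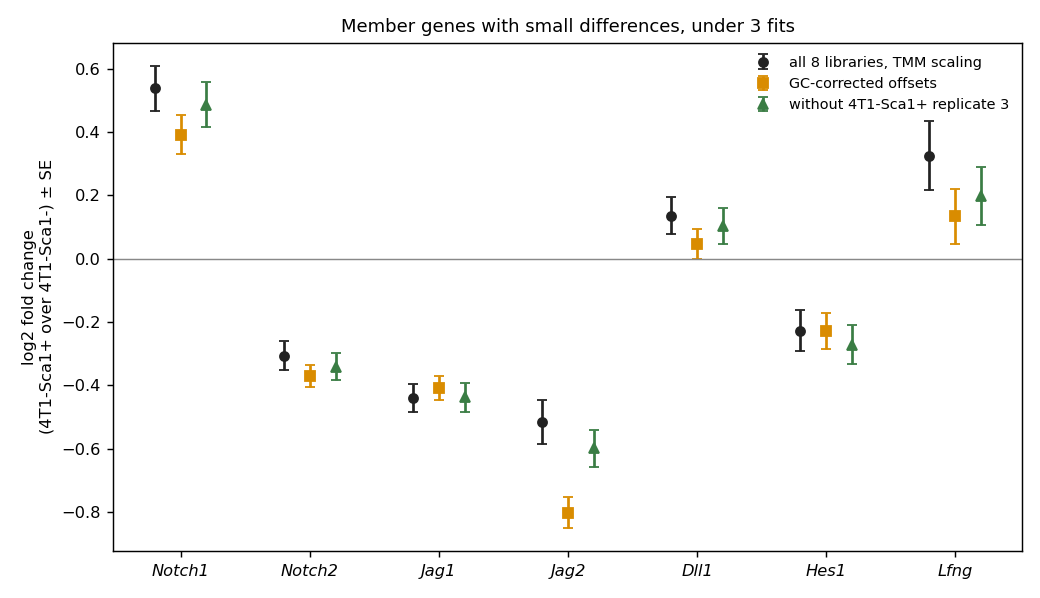
Log2 fold change of 4T1-Sca1+ over 4T1-Sca1- (y axis, ± SE) for the 7 tested members other than Notch3, from all 8 libraries (black), with GC-corrected offsets (orange) and without 4T1-Sca1+ replicate 3 (green). Jag2 moves from -0.52 to -0.80 and Lfng from 0.33 to 0.13 under the GC correction, and no gene changes sign.

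Levels of different genes were compared per kilobase of exon. In 4T1-Sca1+ cells the order was Hes1 (298 ± 20.8 normalized counts per kilobase), Dll1 (260 ± 14.7), Jag1 (215 ± 4.75), Notch2 (208 ± 9.61), Lfng (92.4 ± 15.9), Jag2 (83.3 ± 9.22), Notch1 (30.0 ± 2.21), Notch3 (19.9 ± 4.16), Hey1 (2.30 ± 0.494) and Notch4 (1.81 ± 0.605). Libraries overlapped between Hes1 and Dll1, Jag1 and Notch2, Lfng and Jag2, and Hey1 and Notch4. In 4T1-Sca1- cells Jag1 (294 ± 5.6) came second after Hes1 (351 ± 23.5), Jag2 (120 ± 6.41) stood above Lfng (74.3 ± 7.28), and Notch3 (1.20 ± 0.468) fell to the level of Hey1 (2.20 ± 0.403) and Notch4 (0.656 ± 0.184), with which its libraries overlapped. Notch3 in 4T1-Sca1+ cells, at 14.8 to 24.9, remained below Notch1, at 28.2 to 33.1, without overlap of the libraries.

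The other genes of the pathway were taken from 8 lists of 71 genes, of which 67 were counted and 58 tested. In all, 20 were higher, 14 were lower and 24 did not pass the test. This is 58.6% called against 61.5% of all tested genes, with a median log2 fold change of 0.06, and 29 of 58 did not overlap between groups, against 54.7% of all tested genes. Only 3 were called at 2-fold or more, namely Cdkn1a, Neurl1b and Tle2.

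**Figure D4:**
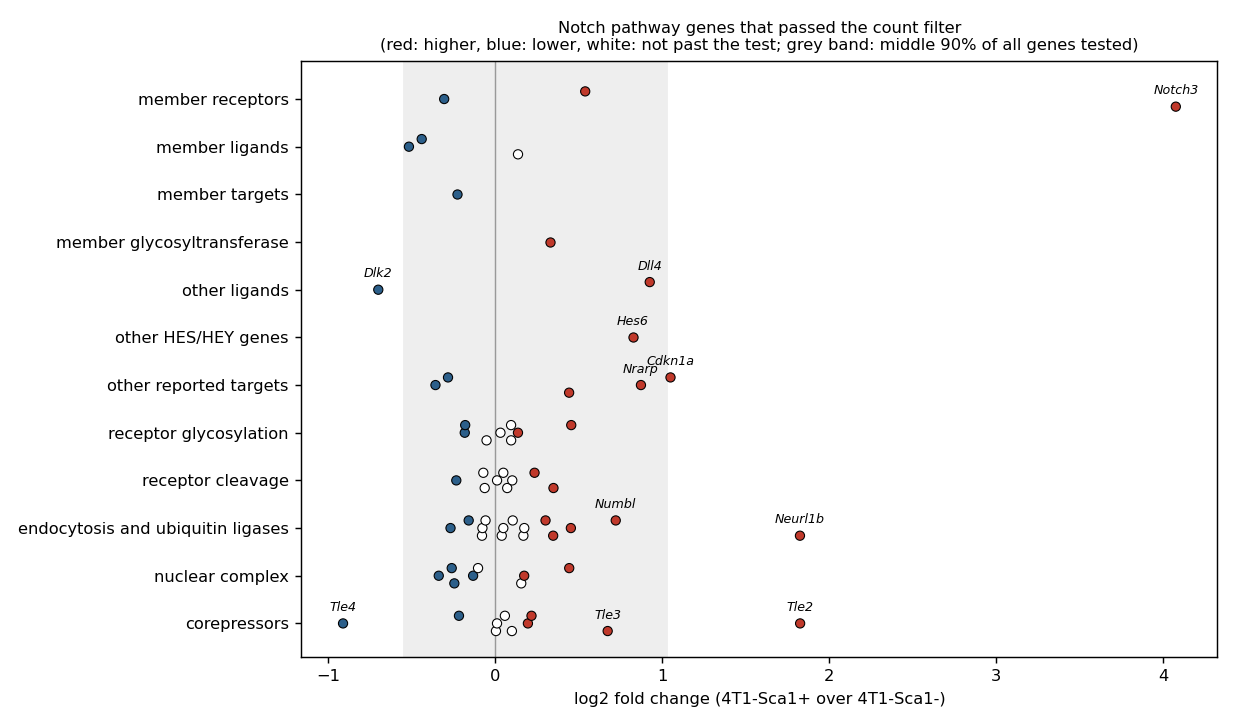
Log2 fold change (x axis) of each tested gene of the pathway by list (y axis), red where higher in 4T1-Sca1+, blue where lower and white where not past the test, over a grey band for the middle 90% of all tested genes, -0.55 to 1.03. Notch3 lies at 4.07, Neurl1b and Tle2 near 1.82, and most other genes inside the band.

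Enzymes that modify, cleave and traffic receptors and ligands mostly changed little, and so did most of the tested genes. Over all tested genes the lower and upper quartiles of the log2 fold change were -0.217 and 0.28, and 61.5% were called. The share called was below this in the lists for glycosylation, cleavage and endocytosis, a difference that was not tested. Of 8 tested glycosylation genes, 2 were higher and 2 lower, led by the O-glucosyltransferase gene Poglut3 at a log2 fold change of 0.45 (SE 0.06) and with Eogt lowest at -0.18 (SE 0.08). Eogt had an edgeR adjusted p of 0.0498, its groups overlapped, and the call was lost under 14 of 19 alternative fits. Of 9 tested cleavage genes, 2 were higher and 1 lower. Furin, the convertase that matures the receptors, was at 0.35 (SE 0.06), or 0.23 with GC-corrected offsets, and the gamma-secretase subunit gene Psen2 was at -0.23 (SE 0.06). Adam10, which encodes the protease for ligand-dependent cleavage, had a log2 fold change of 0.01 (SE 0.07, edgeR adjusted p = 0.901), but 0.11 with a call under the GC correction (adjusted p = 0.0278).

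Among 15 tested genes for endocytosis and ubiquitin ligases, 5 were higher and 2 lower. Neurl1b encodes a Neuralized E3 ligase that acts on Notch ligands. It rose from 75.6 ± 11 to 266 ± 32.9 normalized counts (SD, n = 4), a 3.54-fold difference (log2 fold change 1.82, SE 0.12, edgeR adjusted p = 4.69e-10). Mib1, which also encodes an E3 ligase for Notch ligands, had a log2 fold change of -0.08 (SE 0.07, edgeR adjusted p = 0.37). Dtx3l was the lowest at -0.27 (SE 0.07), and its exons overlap those of the counted gene Parp9 on the opposite strand.

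In the nuclear complex 2 of 8 tested genes were higher and 4 lower, and in the corepressors 4 of 10 were higher and 2 lower. Rbpj, the DNA-binding factor of the pathway, had normalized counts of 748 ± 46.8 and 810 ± 24.0 and did not pass the test (log2 fold change -0.10, SE 0.06, edgeR adjusted p = 0.122), with -0.02 under the GC correction. The Mastermind genes went apart, with Maml3 at 0.44 (SE 0.08) and Maml2 at -0.34 (SE 0.07). The Groucho corepressor genes, partners of HES proteins, also went apart. Tle2 rose from 45.2 ± 6.09 to 161 ± 37.1 normalized counts (SD, n = 4; log2 fold change 1.82, SE 0.16, edgeR adjusted p = 4.22e-08), whereas Tle4 fell from 236 ± 18.2 to 125 ± 11.8 (log2 fold change -0.91, SE 0.09, edgeR adjusted p = 2.2e-07).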

How the data were processed

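RNA was measured in 4 4T1-Sca1+ and 4 4T1-Sca1- libraries. Library preparation from total RNA used, per the labels, a TruSeq version 2 kit, which does not mark strand. The submitters' processing notes name STAR 2.5.3a, cutadapt 1.16 and GRCm38. The counting tool, annotation and use of strand are not given in the sources used here. The authors deposited whole-number counts per Ensembl gene for 16341 genes, and a table of normalized signal for 15372 genes. That signal equalled the counts divided by DESeq2 size factors, to a relative difference of at most 5e-15, and left out 969 genes with a single count.

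Symbols, positions and exon lengths came from GENCODE mouse M21 on GRCm38 (16200 genes matched, 141 not). Exons of Notch1, Notch2, Notch3 and Dll1 overlap annotations that were not counted. Counts were tested with edgeR 4.0.16 in R 4.3.3 (filterByExpr, TMM, quasi-likelihood, two-sided, Benjamini-Hochberg), which left 4624 genes untested. Normalized counts are counts divided by size factors. Levels per kilobase use the merged exon length, which need not match the transcripts expressed. The shares of Notch3 and Jag1 were compared by exact permutation over 70 splits.

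The members and lists were chosen with earlier results of these data known. The text names the 10 members, Ly6a, and from each pathway list the called gene with the highest and the lowest log2 fold change at a mean normalized count of at least 50. Nrarp, Rbpj, Adam10, Mib1, Hey2 and the marker genes named were added after their values were seen. Alternatives were DESeq2 size factors, library totals, upper-quartile scaling, the filter left out or set to 10 counts in each library, limma-voom (limma 3.58.1), DESeq2 1.42.0, limma on the log2 deposited signal with a pseudocount of 1, a replicate block, GC-corrected offsets (loess, span 0.5), an adjusted p under 0.01 and leaving out each library. Depth was 13561804 to 16968215 counts per library. The fits were tested on simulated data. Replicates differed by more than sampling noise (chi-square per gene 1.898 to 10.16).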

Additional observations from a re-analysis of the deposited data

Results flagged for a closer look

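In 5 of 56 groups of 4 libraries, 1 library lay further from the rest than Dixon's 95% limit allows, where chance gives 2.8. In 4 of these it was 4T1-Sca1+ replicate 3, the library with the GC-rich shift, and it was the highest. Its normalized count was 2400 for Notch2 (others 2180 to 2210), 676 for Jag2 (541 to 552), 291 for Lfng (208 to 214) and 5970 for Furin (4810 to 4890). Without it the log2 fold changes were -0.34, -0.60, 0.20 and 0.27, and only Lfng lost its call. For Cdkn1a, 4T1-Sca1- replicate 1 was the lowest of its group at 316, with the others at 344 to 347. Whether the GC trend accounts for these values was not tested.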

How the results depend on the processing

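Of the 10 members, 8 kept their direction and side of the threshold under every alternative that gave a value, and so did 24 of the 28 genes examined in this way. Notch3 gave no value in the fit with at least 10 counts in every library, which left 18 alternatives. Notch4 and Hey1, untested in the main fit, were compared with the fit without the filter and had only 6 and 1 alternatives. No value was reversed. The exceptions among the members were Dll1 and Lfng. Dll1 passed the threshold with library totals alone (0.179), upper-quartile scaling (0.166), at least 10 counts in every library (0.147) and limma-voom (0.136), and leaving out 1 library gave 0.103 to 0.179, with a call without 4T1-Sca1+ replicate 4 (0.163) and without 4T1-Sca1- replicate 2 (0.179). Lfng lost its call with GC-corrected offsets (0.134) and at an adjusted p under 0.01 (0.326), and leaving out 1 library gave 0.199 to 0.371. The causes were not tested. Eogt also lost its call, and Rbpj gained one without 4T1-Sca1+ replicate 2 (-0.146). Over all genes, 3019 to 4118 were called higher and 2829 to 3853 lower, and in the pathway lists 18 to 24 and 10 to 18. Among the lists, glycosylation genes ran from 1 to 4 higher and 0 to 2 lower, with leaving out 1 library giving 1 to 3 and 0 to 2. With GC-corrected offsets 4 cleavage genes were higher and 2 lower, 4 endocytosis genes were lower and 2 corepressors were higher. Endocytosis genes lower fell to 1 without 4T1-Sca1+ replicate 4, 4T1-Sca1- replicate 2 or 4T1-Sca1- replicate 4. Hey2 was called lower without the filter, and the HES and HEY list gained 1 lower call there and with DESeq2. Notch4, untested above, was called without the filter, with DESeq2 and in 5 fits that left out a library.

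Deviations from the group mean were compared between libraries with the same number, with correlations of -0.15 to 0.0957. With 4 libraries per group these values cannot show whether the numbers pair the libraries, and pairing is not stated. With a replicate block 3605 genes were higher and 3452 lower, and the same number of members was called. Within numbers the Notch3 share differed by 7.20 and the Jag1 share by -6.57 percentage points, each with a sign-flip permutation p of 0.125, the smallest that 4 pairs allow. Depth limits Notch4, Hey1 and the marker genes at 10 counts or fewer, and the 4T1-Sca1- level of Notch3 rests on 6 to 13 counts per library.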
